A study of Homo sapiens with 2 samples.

Results

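The 51 genes described here make up the DNA replication machinery, from origin licensing to nucleotide supply. They were chosen by name from a list, and their symbols were matched to the Entrez gene identifiers that the deposited tables use. All 51 were found there, out of 19316 genes listed in 1 or both of 2 libraries.

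DNA replication in S phase is carried out by a set of complexes that act in order. The origin recognition complex (ORC) marks origins, CDC6 and CDT1 load the MCM helicase there, CDC45 and GINS turn it into an active helicase, and primase and the replicative polymerases copy the strands behind it. A sliding clamp, its loader, the single-strand binding protein RPA and the enzymes that join Okazaki fragments complete the fork, and ribonucleotide reductase and its partners supply deoxynucleotides. Many of these genes are transcribed together before S phase under E2F transcription factors, and proliferating liver cancer cells are known to express them at high levels.

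The FZD2 shRNA library came from SNU449 cells 7 days after transduction with lentivirus carrying a short hairpin RNA (shRNA) against FZD2, a frizzled receptor for Wnt ligands. The control library came from SNU449 cells 7 days after lentivirus with a negative control shRNA. SNU449 is an established human liver cancer line, and both groups share that line, lentiviral delivery and the culture medium. The labels do not say how many hairpin sequences were used or whether the cells were pooled or cloned. One protocol label calls the cells prostate and the design text spells the line SNU499, while the cell type label says liver cancer.

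With 1 library in each group there is no replicate check, and no p-value is given. Levels are FPKM, fragments per kilobase of transcript scaled to the number of reads, as the authors deposited them. A difference is log2((FPKM + 1) / (FPKM + 1)), FZD2 shRNA over control shRNA, and a gene is called lower or higher at 2-fold or more. Intervals in brackets are 95% intervals of the log2 ratio of read counts scaled to library totals, and they cover counting error only. A gene whose expected count is not a whole number in 1 or both libraries is said to have shared reads, since such counts arise when a read fits more than 1 gene and is divided. The genes it was divided with are not given.

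With FZD2 shRNA the library held 8234592 expected counts over 18303 genes, against 8436870 over 18336 with control shRNA. FZD2 itself was at 15.76 FPKM with FZD2 shRNA and 59.45 FPKM with control shRNA, 3.61-fold lower, which matches the labels. FZD2 had shared reads, with 503.28 and 1949.91 expected counts. Of 6 hepatocyte markers none reached 1 FPKM and ALB was at 0.05 FPKM with FZD2 shRNA and unlisted with control shRNA. Of 6 prostate markers 3 reached 1 FPKM, while KLK3, KLK2 and TMPRSS2 were unlisted in both libraries. The summed level of 6 fibroblast and stellate cell markers was 340.88 FPKM with FZD2 shRNA, against 434.04 FPKM with control shRNA. Of the 4 that reached 1 FPKM, 3 had a log2 ratio below 0 and 1 above. COL1A2 was at 198.48 FPKM with FZD2 shRNA, against 306.36 FPKM with control shRNA. COL1A1 went the other way, at 119.9 FPKM with FZD2 shRNA, against 100.13 FPKM with control shRNA. The summed level of 5 leukocyte markers was 74.78 FPKM with FZD2 shRNA, against 15.59 FPKM with control shRNA, of which LYZ made 71.47 FPKM with FZD2 shRNA and 12.31 FPKM with control shRNA, and CD3E was unlisted in both. The part of these markers in the results below was not tested.

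All 51 replication genes were measured, which means that 1 or both libraries reached 1 FPKM. Among them 8 were at least 2-fold lower with FZD2 shRNA, where 7.41% of the 14377 measured genes were, and 2 were at least 2-fold higher, where 15.2% of measured genes were. The 8 lower genes were SAMHD1, MCM2, RFC3, PCNA, RPA1, TYMS, PRIM2 and LIG1, and the 2 higher genes were ORC6 and GINS4. The members lay mostly below 0, at 38 of 51 against 50.1% of measured genes, with a median of -0.62 beside -0.00 over all measured genes. With the trend on GC content taken out, the members' median was -0.19 and that of all measured genes 0.23. That trend was fitted on genes without shared reads and also taken out of genes with them, whose median before was 0.48. For the 33 members without shared reads and with a GC value, the median distance from genes of that kind and like GC content was -0.18. In 35 members the counting interval lay wholly below 0, against 36.8% of measured genes, and in 11 it lay wholly above 0, against 35.5%. In bulk RNA, fewer cells in S phase and less RNA per cell cannot be told apart.

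**Figure D1:**
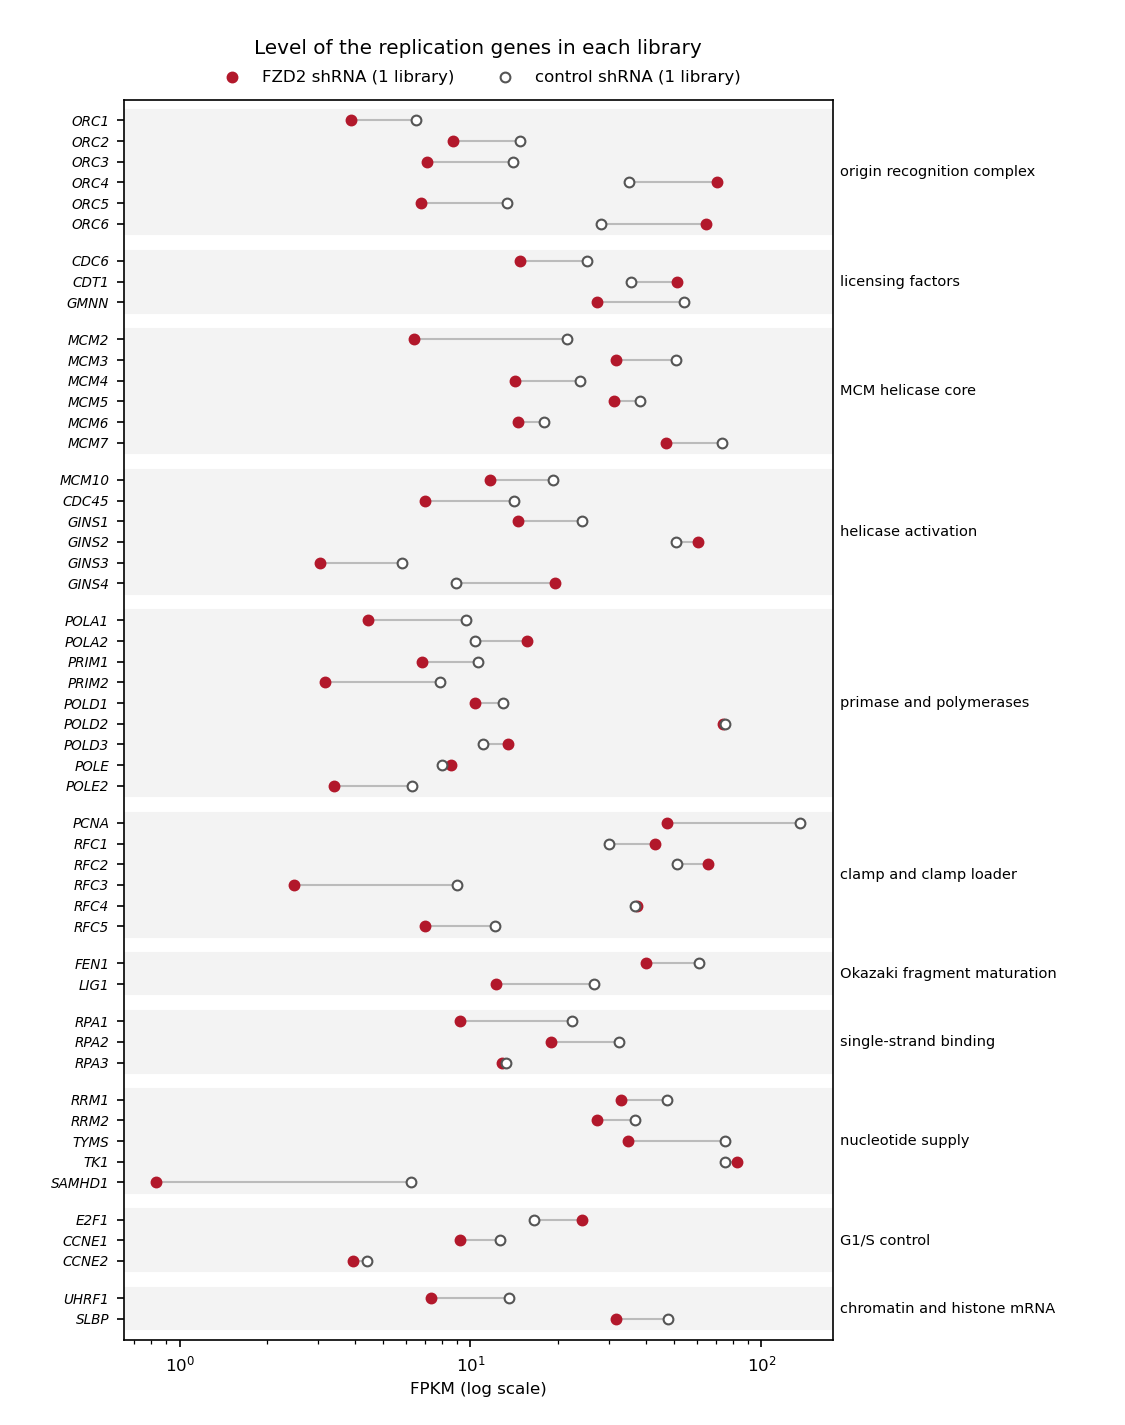
Level of each of the 51 replication genes in FPKM on a log axis, grouped by role, with the FZD2 shRNA library as filled points and the control shRNA library as open points (1 library each). Most filled points lie left of the open ones, with PCNA, MCM2, RFC3 and SAMHD1 far to the left and ORC4, ORC6 and GINS4 to the right.

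Shared reads split the members. The 16 members with shared reads were 2 lower (PRIM2 and LIG1) and 2 higher (ORC6 and GINS4), beside 3.71% lower and 29.7% higher among the 6223 measured genes with shared reads. The 35 members without shared reads were 6 lower and 0 higher, beside 10.2% lower and 4.19% higher among the 8154 measured genes of that kind. The members' medians were close in both kinds, at -0.65 with shared reads and -0.60 without. The medians of all measured genes were 0.48 with shared reads and -0.25 without. Values below 0 were found in 10 of 16 members with shared reads, beside 31.0% of such genes, and in 28 of 35 members without, beside 64.7% of such genes. Both members called higher had expected counts that are not whole, and so did ORC4, CDT1, POLA2 and RFC2, which lay above 0.

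**Figure D2:**
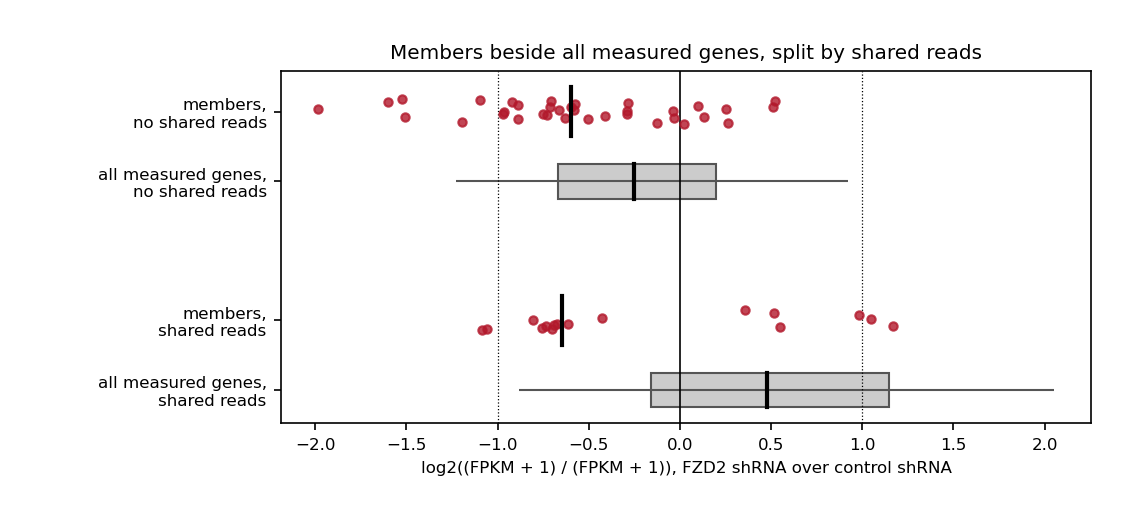
Each point is 1 of the 51 members on the axis of log2((FPKM + 1) / (FPKM + 1)), FZD2 shRNA over control shRNA, with a black bar at the members' median. Grey boxes hold the middle 50% of all measured genes of the same kind, lines reach from their 5th to their 95th percentile, and dotted lines mark 2-fold. Members with shared reads have a median of -0.65 where all genes with shared reads have 0.48.

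The origin recognition complex, the 6-subunit ATPase that binds origins, was divided between lower and higher subunits. ORC1, its cell-cycle-regulated subunit, was at 3.89 FPKM with FZD2 shRNA and 6.49 FPKM with control shRNA. ORC2 was at 8.68 FPKM with FZD2 shRNA and 14.79 FPKM with control shRNA. ORC3, a core subunit like ORC2, was at 7.11 FPKM with FZD2 shRNA, against 14.03 FPKM with control shRNA, and ORC5 at 6.77 FPKM with FZD2 shRNA, against 13.35 FPKM with control shRNA. These 4 subunits had log2 ratios between -0.62 and -0.89, short of 2-fold. ORC6, which joins the core less tightly, was at 64.28 FPKM with FZD2 shRNA and 28.0 FPKM with control shRNA, a log2 ratio of 1.17 (1.03 to 1.37). ORC4 was at 70.22 FPKM with FZD2 shRNA and 34.98 FPKM with control shRNA, a log2 ratio of 0.99 that fell just short of 2-fold and passed it in TPM (1.15). ORC4 and ORC6 both had shared reads, and so did ORC1. The levels of the 6 subunits spanned 18.1-fold with FZD2 shRNA and 5.39-fold with control shRNA.

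The licensing factors load the helicase or hold it back. CDC6, the loading ATPase, was at 14.8 FPKM with FZD2 shRNA, against 25.24 FPKM with control shRNA (log2 ratio -0.73, and -0.24 with the GC trend taken out). CDT1, its partner in loading, was at 51.26 FPKM with FZD2 shRNA, against 35.49 FPKM with control shRNA (0.52, and 0.33 with the GC trend taken out). GMNN encodes geminin, the inhibitor that binds CDT1 after licensing. GMNN was at 27.19 FPKM with FZD2 shRNA and 54.27 FPKM with control shRNA, a log2 ratio of -0.97 that was -1.07 in CPM and -0.46 with the GC trend taken out. So CDT1 lay above its control level while its inhibitor lay below, with count intervals of 0.40 to 0.66 for CDT1 and -1.32 to -0.87 for GMNN that do not meet. CDC6 and CDT1 had shared reads, and the median of all measured genes with shared reads was 0.48. GMNN had none, and measured genes without them had a median of -0.25.

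All 6 subunits of the MCM2-7 ring, the motor of the replicative helicase, lay below 0. MCM6, however, stood at 0.23 with the GC trend taken out. It had no shared reads, and genes of that kind and like GC content had a median of -0.51 where MCM6 had -0.28. MCM2, the subunit that also binds histones, was at 6.41 FPKM with FZD2 shRNA and 21.47 FPKM with control shRNA, from 187 and 643 reads. It was 3.03-fold lower, with a log2 ratio of -1.60 (-1.99 to -1.51 in counts). MCM3 was at 31.73 FPKM with FZD2 shRNA, against 50.79 FPKM with control shRNA, and MCM7 at 46.81 FPKM with FZD2 shRNA, against 73.09 FPKM with control shRNA. MCM4, which had shared reads, was at 14.21 FPKM with FZD2 shRNA and 23.7 FPKM with control shRNA. These 3 had log2 ratios of -0.63 to -0.70. MCM5 was at 31.24 FPKM with FZD2 shRNA and 38.37 FPKM with control shRNA, and MCM6 at 14.54 FPKM with FZD2 shRNA, against 17.92 FPKM with control shRNA, with log2 ratios of -0.29 and -0.28.

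The ring contains 1 copy of each subunit, yet the transcripts differed by unequal amounts. The log2 count ratio of MCM6 exceeded that of MCM2 by 1.44 (1.15 to 1.74, counting error only), a pair picked after the values were seen. MCM2 ranked 43 of 51 by level with FZD2 shRNA and 26 with control shRNA. MCM2 was the lowest of the 6 subunits in the FZD2 shRNA library, whereas MCM6 was the lowest in the control. The summed level of the 6 was 144.94 FPKM with FZD2 shRNA, against 225.34 FPKM with control shRNA.

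The genes that activate the helicase were also mixed. MCM10, a factor needed to start the fork, was at 11.64 FPKM with FZD2 shRNA and 19.19 FPKM with control shRNA. CDC45, the helicase subunit that joins at firing, was at 6.96 FPKM with FZD2 shRNA and 14.08 FPKM with control shRNA (log2 ratio -0.92, -1.42 to -0.75 in counts). GINS is a complex of 4 subunits that joins together with CDC45. GINS1 was at 14.55 FPKM with FZD2 shRNA, against 24.1 FPKM with control shRNA, and GINS3 at 3.05 FPKM with FZD2 shRNA, against 5.83 FPKM with control shRNA. GINS2 was at 60.72 FPKM with FZD2 shRNA and 50.73 FPKM with control shRNA. GINS4 was at 19.55 FPKM with FZD2 shRNA and 8.92 FPKM with control shRNA, 2.07-fold higher with a log2 ratio of 1.05 (0.93 to 1.34). Within GINS, then, 2 subunits lay below 0 and 2 above, and GINS2 was the sole subunit without shared reads.

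Of the 4 genes of polymerase alpha and primase 3 lay below 0, with a median of -0.77. POLA1, the catalytic subunit of the enzyme that starts each new strand, was at 4.46 FPKM with FZD2 shRNA, against 9.64 FPKM with control shRNA (log2 ratio -0.96). PRIM1, the primase catalytic subunit, was at 6.8 FPKM with FZD2 shRNA, against 10.65 FPKM with control shRNA. PRIM2, the large primase subunit, was at 3.17 FPKM with FZD2 shRNA and 7.86 FPKM with control shRNA. PRIM2 was 2.12-fold lower (log2 ratio -1.09, -1.76 to -0.87 in counts), from 60.88 and 155.23 expected counts with shared reads, and its value was -0.57 with the GC trend taken out. POLA2, the accessory subunit, went the other way, at 15.6 FPKM with FZD2 shRNA and 10.33 FPKM with control shRNA (0.55, with shared reads). These 4 levels spanned 4.92-fold with FZD2 shRNA and 1.35-fold with control shRNA.

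Polymerase delta copies the lagging strand, and its 3 genes among the members had log2 ratios between -0.29 and 0.27. POLD1, the catalytic subunit, was at 10.39 FPKM with FZD2 shRNA, against 12.9 FPKM with control shRNA (-0.54 to -0.10 in counts). POLD2 was at 73.59 FPKM with FZD2 shRNA, against 75.18 FPKM with control shRNA, and its interval of -0.17 to 0.08 spans 0. POLD3 was at 13.43 FPKM with FZD2 shRNA and 11 FPKM with control shRNA (0.06 to 0.48 in counts). Polymerase epsilon copies the leading strand, and its catalytic subunit POLE was at 8.59 FPKM with FZD2 shRNA and 7.96 FPKM with control shRNA, with an interval of -0.06 to 0.28. Its second subunit POLE2 was at 3.4 FPKM with FZD2 shRNA, against 6.28 FPKM with control shRNA (log2 ratio -0.73, -1.43 to -0.40 in counts). None of these 5 genes had shared reads or reached 2-fold.

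**Figure D3:**
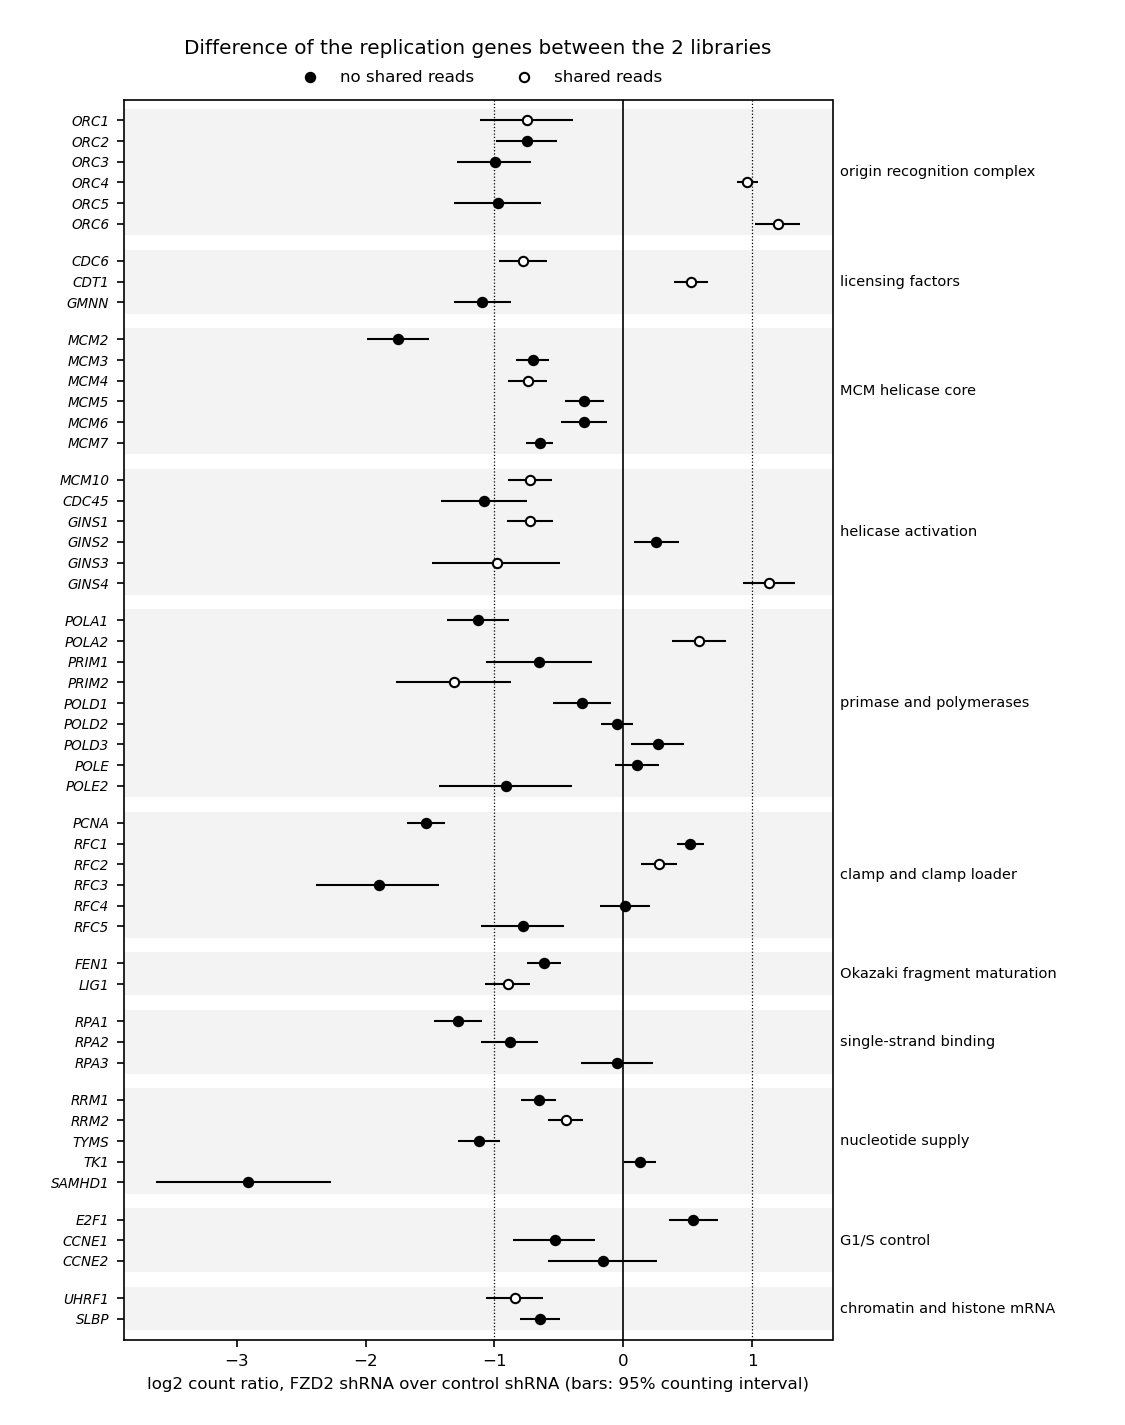
Log2 ratio of read counts scaled to library totals, FZD2 shRNA over control shRNA, for each of the 51 members by role, with bars for the 95% counting interval (1 library per group). Filled points are members without shared reads and open points members with them, and dotted lines mark 2-fold. SAMHD1, RFC3, MCM2 and PCNA lie furthest left, and the members furthest right, ORC6, GINS4 and ORC4, are all open points.

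PCNA, the sliding clamp that tethers polymerases to DNA, had the highest level of all members in the control library and stood at rank 8 in the FZD2 shRNA library. It was at 47.2 FPKM with FZD2 shRNA, against 135.96 FPKM with control shRNA, from 509 and 1506 reads without shared reads. The log2 ratio was -1.51 (-1.68 to -1.38 in counts), 2.84-fold lower, and it was -1.02 with the GC trend taken out. The antisense gene PCNA-AS1, whose RefSeq span overlaps that of PCNA by 384 bases, was at 6.84 FPKM with FZD2 shRNA and 37.32 FPKM with control shRNA. PCNA-AS1 had whole expected counts too, 20 with FZD2 shRNA and 112 with control shRNA. No source used here gives the strand setting of the counting. Whether reads of either gene were counted to the other where the spans overlap cannot be told.

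The clamp loader RFC, a complex of 5 ATPases that opens PCNA and places it on DNA, had the widest range of count ratios among the 8 complexes compared. RFC3 was at 2.47 FPKM with FZD2 shRNA and 8.98 FPKM with control shRNA, from 48 and 183 reads. Its log2 ratio was -1.52 (-2.39 to -1.43 in counts), or 2.88-fold lower, and it was -0.90 with a pseudocount of 5 FPKM. RFC1, the large subunit, was at 43.17 FPKM with FZD2 shRNA, against 29.99 FPKM with control shRNA (0.51), and RFC2 at 65.75 FPKM with FZD2 shRNA, against 51.13 FPKM with control shRNA (0.36, shared reads). RFC4 was at 37.37 FPKM with FZD2 shRNA and 36.72 FPKM with control shRNA, with an interval of -0.18 to 0.21. RFC5 was at 6.99 FPKM with FZD2 shRNA and 12.11 FPKM with control shRNA (-0.71). The log2 count ratio of RFC1 exceeded that of RFC3 by 2.42 (1.95 to 2.89, counting error only), again a pair picked after seeing the values. Neither of that pair had shared reads, and their transcripts had like GC contents, 41.7% for RFC1 and 41.6% for RFC3. The levels of the 5 subunits spanned 26.6-fold with FZD2 shRNA and 5.69-fold with control shRNA.

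Both genes of Okazaki fragment maturation lay below their control levels. FEN1, the flap nuclease, was at 39.95 FPKM with FZD2 shRNA, against 60.91 FPKM with control shRNA (log2 ratio -0.60). LIG1, the ligase that seals the nicks, was at 12.2 FPKM with FZD2 shRNA, against 26.48 FPKM with control shRNA, a log2 ratio of -1.06. The count ratio of LIG1 was smaller, at -0.90 (-1.07 to -0.72). The deposited length of LIG1, which is not the same in the 2 libraries, was 4098.69 bases with FZD2 shRNA and 3517.94 bases with control shRNA, over 11 listed transcripts. With 1 common length for both libraries the log2 ratio was -0.85, short of 2-fold. LIG1 had shared reads.

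RPA coats single-stranded DNA at the fork as a complex of 3 subunits. RPA1, the large DNA-binding subunit, was at 9.22 FPKM with FZD2 shRNA and 22.39 FPKM with control shRNA, a log2 ratio of -1.19 (-1.47 to -1.10 in counts) and 2.29-fold lower. RPA2, the subunit phosphorylated under replication stress, was at 18.93 FPKM with FZD2 shRNA and 32.49 FPKM with control shRNA (-0.75). RPA3, the small subunit, was at 12.88 FPKM with FZD2 shRNA, against 13.26 FPKM with control shRNA, with an interval of -0.32 to 0.23 and a log2 ratio of -0.04 that was 0.11 in TPM and 0.44 with the GC trend taken out. The log2 count ratio of RPA3 exceeded that of RPA1 by 1.24 (0.91 to 1.57), the ends of the range within RPA. RPA1 shares 156 bases of exon with SMYD4 on the opposite strand, and SMYD4 was at 27.21 FPKM with FZD2 shRNA, against 9.38 FPKM with control shRNA. Such an exon overlap with a measured gene was found for 12 of the 51 members, 11 of them on the opposite strand.

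Of 5 genes of nucleotide supply, SAMHD1 and TYMS were at least 2-fold lower. SAMHD1, the hydrolase that breaks down deoxynucleotides, was at 0.83 FPKM with FZD2 shRNA and 6.24 FPKM with control shRNA, from 22 and 170 reads. Its log2 ratio was -1.98 and its count ratio -2.91 (-3.63 to -2.27), since a pseudocount of 1 FPKM shrinks the difference of a gene this low. With a pseudocount of 5 FPKM the ratio was -0.95, short of 2-fold, where TYMS had -1.01, and with the GC trend taken out it was -1.51. RRM1 and RRM2, the subunits of ribonucleotide reductase, were at 32.98 and 27.2 FPKM in the FZD2 shRNA library and at 47.27 and 36.9 FPKM in the control, and their log2 ratios of -0.51 and -0.43 came to -0.00 and 0.08 with the GC trend taken out. TYMS, thymidylate synthase, was at 34.69 FPKM with FZD2 shRNA and 75.17 FPKM with control shRNA. TYMS was 2.13-fold lower (log2 ratio -1.09, -1.28 to -0.96 in counts), with -0.95 in TPM and -0.73 with the GC trend taken out. TK1, the thymidine kinase of the salvage route to the same nucleotide, was at 82.52 FPKM with FZD2 shRNA, against 75.21 FPKM with control shRNA (0.13, 0.01 to 0.25 in counts). TK1 was thus the highest member in the FZD2 shRNA library, and it stood next to TYMS and POLD2 in the control. TYMS shares 967 bases of exon with ENOSF1 on the opposite strand, and ENOSF1 was at 13.3 FPKM with FZD2 shRNA, against 18.07 FPKM with control shRNA.

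The 3 members that control S-phase entry, E2F1, CCNE1 and CCNE2, did not reach 2-fold. E2F1, an activator of replication genes, was at 24.13 FPKM with FZD2 shRNA and 16.51 FPKM with control shRNA (log2 ratio 0.52, 0.35 to 0.74 in counts). CCNE1 and CCNE2 encode the E cyclins that drive entry with CDK2. CCNE1 was at 9.21 FPKM with FZD2 shRNA and 12.59 FPKM with control shRNA (-0.41). CCNE2 was at 3.96 FPKM with FZD2 shRNA, against 4.41 FPKM with control shRNA, with an interval of -0.58 to 0.26, and its log2 ratio of -0.13 was 0.40 with the GC trend taken out. CCNE2 shares 1629 bases of exon with INTS8 on the opposite strand, and INTS8 was at 13.86 FPKM with FZD2 shRNA and 14.64 FPKM with control shRNA. UHRF1, which directs maintenance DNA methylation behind the fork, was at 7.34 FPKM with FZD2 shRNA, against 13.58 FPKM with control shRNA (-0.81). SLBP, which binds the stem-loop of histone mRNAs in S phase, was at 31.71 FPKM with FZD2 shRNA and 47.72 FPKM with control shRNA (-0.57).

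The order of the members by level was similar in both libraries. Across the 51 genes the correlation of log2(FPKM + 1) between the libraries was 0.86 (Pearson's r) and 0.86 (Spearman's rho), a description of genes that share 2 libraries and are not replicates. Spearman's rho between the members' log2 ratio and their control level was 0.12. Together the members took 0.324% of all expected counts with FZD2 shRNA and 0.382% with control shRNA. Clamp and loader genes summed to 202.95 FPKM with FZD2 shRNA and 274.89 FPKM with control shRNA. The 5 loader genes alone summed to 155.75 FPKM with FZD2 shRNA, against 138.93 FPKM with control shRNA.

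GC content moved with the differences. Among 7999 measured genes without shared reads, Spearman's rho between the log2 ratio and the GC content of the transcripts was 0.365, and among the 33 members of that kind with a known GC content it was 0.238. With shared-read genes included, rho was 0.162 over 13810 measured genes and 0.193 over 49 members. Of genes without shared reads, those in the lowest of 10 GC bins had a median of -0.54 and those in the highest 0.23. Of the 33 members, 22 lay below the median of their own GC bin, and the median distance from it was -0.18. MCM2 stood far from genes of like GC content, at 58.1% GC and a log2 ratio of -1.60 where its bin had a median of -0.02. SAMHD1, PCNA and RFC3 had GC contents of 46.0%, 45.2% and 41.6%, where bin medians were -0.50, -0.50 and -0.55. The trend was fitted on genes without shared reads and taken out of genes with shared reads as well. With the trend taken out, 5 members were lower (MCM2, SAMHD1, LIG1, PCNA and RFC3) and 4 were higher (ORC4, ORC6, GINS4 and RFC1), of the 49 members with a known GC content. In that setting 2.52% of measured genes were lower and 21.4% higher. RPA1, which was lower, and RFC5 had no known GC content and are not in these counts. The part of GC content in these differences was not tested.

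**Figure D4:**
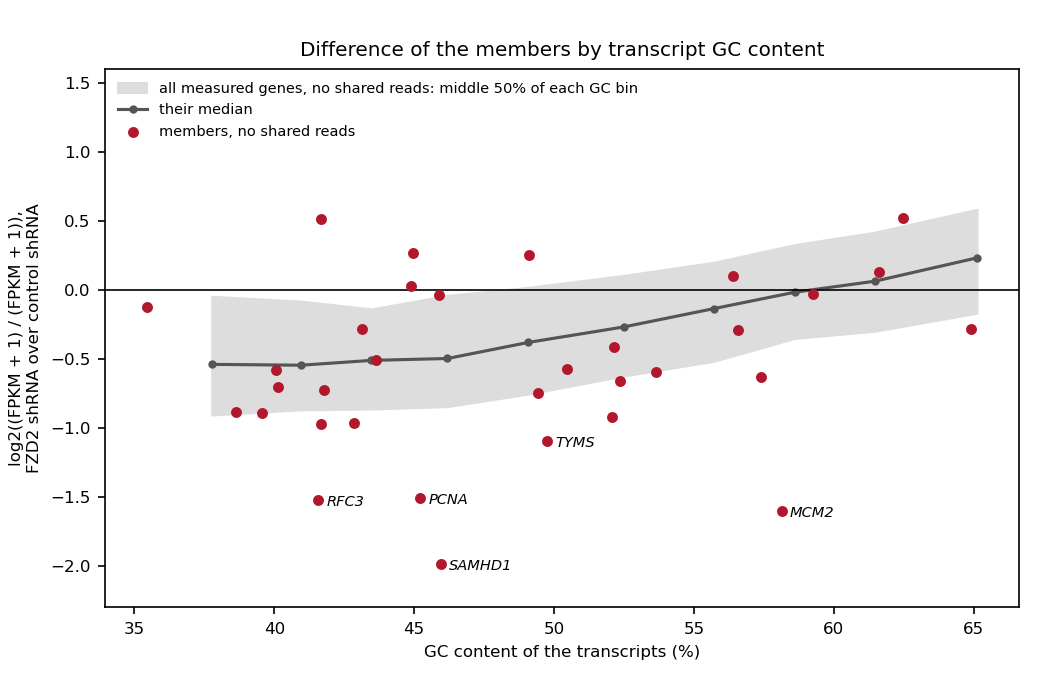
Log2((FPKM + 1) / (FPKM + 1)), FZD2 shRNA over control shRNA, against the GC content of the transcripts in percent. Points are the 33 members without shared reads and with a known GC content, the line joins the medians of 10 GC bins of all measured genes without shared reads, and the band holds the middle 50% of each bin. MCM2, PCNA, RFC3 and SAMHD1 lie furthest below the band.

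The deposited gene lengths, which differ between the libraries where a gene has several transcripts, gave a second readout. Of 35 members with more than 1 listed transcript, 2 (5.71%) had lengths that differed by more than 0.1 on the log2 scale, beside 14.5% of 8199 measured genes. They were LIG1, with the greater length in the FZD2 shRNA library, and RRM1. RRM1 had a length of 2596.8 bases with FZD2 shRNA and 2846.17 bases with control shRNA, and its log2 count ratio was -0.66 (-0.79 to -0.52) where the FPKM ratio was -0.51.

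Promoter sequences are shown because E2F factors are known to bind many of these genes through elements of the form TTTGGCGC, TTTCCCGC, TTTCGCGC or TTTGCCGC, searched here on both strands. RefSeq windows (build GRCh38.p14) of 250 bases before to 50 bases after each start were found for 44 of the 51 members. At least 1 of the 4 elements was in the windows of 21 of the 44 (47.7%), beside 6.52% of the 11101 measured genes with a window and 3.31% of all 35116 windows. The element CCAAT, searched likewise, was in 61.4% of the members, 43.1% of measured genes and 34.6% of all windows. Members with an E2F-type element had a median log2 ratio of -0.73, with 5 of 21 at least 2-fold lower. Members without one had a median of -0.57, with 3 of 23 at least 2-fold lower. Among measured genes the median was -0.09 in the 724 with such an element and -0.04 in the 10377 without, and 6.91% and 7.05% of them were at least 2-fold lower. In the other replication genes the order was the reverse, with a median of -0.27 in the 16 with an element and -0.36 in the 48 without.

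The 5 lower members with an E2F-type element, and 3 members with one whose log2 ratios lay within 0.3 of 0, are shown for comparison as 30 bases around the element nearest the start, which is in capitals. GCGGGAAA, GCGCGAAA and GCGCCAAA are the same elements read on the other strand, and the element shown overlaps a match on the other strand at MCM2 (GCGCGAAA) and at MCM6 (TTTGGCGC). Positions count the first base of the element from the start, with no base 0.
MCM2: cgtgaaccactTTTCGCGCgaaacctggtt
PCNA: cagcgtcagggGCGGGAAAaggcgtgcgtt
RFC3: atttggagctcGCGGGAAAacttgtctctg
TYMS: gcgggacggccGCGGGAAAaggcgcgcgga
LIG1: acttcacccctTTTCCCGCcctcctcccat
MCM6: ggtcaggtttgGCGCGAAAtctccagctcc
GINS2: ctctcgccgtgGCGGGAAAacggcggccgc
POLE: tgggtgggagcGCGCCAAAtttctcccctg

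They lie at chr3:127598402-127598431 on the plus strand for MCM2 (position 3), chr20:5126663-5126692 on the minus strand for PCNA (position -59), chr13:33818083-33818112 on the plus strand for RFC3 (position -55) and chr18:657603-657632 on the plus strand for TYMS (position -39). LIG1 is at chr19:48170440-48170469 on the minus strand (position -114), MCM6 at chr2:135876511-135876540 on the minus strand (position -86), GINS2 at chr16:85688967-85688996 on the minus strand (position -31) and POLE at chr12:132687342-132687371 on the minus strand (position -18). Taking the nearest element of each of the 21 members, GCGGGAAA or its reverse complement TTTCCCGC stands at RFC3 (log2 ratio -1.52), PCNA (-1.51), TYMS (-1.09), LIG1 (-1.06), ORC3 (-0.89), UHRF1 (-0.81), GINS3 (-0.75), GINS2 (0.25) and CDT1 (0.52). TTTCGCGC or its reverse complement GCGCGAAA stands at MCM2 (-1.60), MCM3 (-0.66), MCM7 (-0.63), MCM6 (-0.28) and POLA2 (0.55). TTTGGCGC or its reverse complement GCGCCAAA stands at GMNN (-0.97), POLA1 (-0.96), CDC6 (-0.73), POLE2 (-0.73), GINS1 (-0.69), POLE (0.10) and E2F1 (0.52). A match of these letters is a description and not a bound site.

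The promoter of PCNA is shown in full, since PCNA had the highest control level and lay 2.84-fold lower. These are the 250 bases before its start, chr20:5126623-5126872 on the minus strand, with 1 E2F-type element and 3 CCAAT elements (1 of them read as ATTGG) in capitals.
PCNA: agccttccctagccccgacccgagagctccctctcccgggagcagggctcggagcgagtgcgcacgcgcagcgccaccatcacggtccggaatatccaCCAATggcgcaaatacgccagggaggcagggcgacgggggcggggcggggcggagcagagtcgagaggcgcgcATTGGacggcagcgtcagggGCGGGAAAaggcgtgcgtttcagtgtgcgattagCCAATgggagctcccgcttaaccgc

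Of 77 replication genes outside the 51, in 3 lists, 11 were at least 2-fold lower with FZD2 shRNA, beside 7.41% of measured genes, and 7 at least 2-fold higher, beside 15.2%. Their median was -0.39. With the GC trend taken out, 2 of the 76 with a GC value were lower, beside 2.52% of measured genes, and 7 higher, beside 21.4%. Among the 40 genes of forks, origins and chromatin assembly, 2 were lower and 6 higher, and with the GC trend taken out 0 were lower and 4 higher (CLSPN, POLD4, RNASEH2A and TOP2A). CDC7, the kinase that fires origins, was at 4.08 FPKM with FZD2 shRNA, against 10.87 FPKM with control shRNA, and MCMBP, an MCM-binding protein, at 14.27 FPKM with FZD2 shRNA and 31.25 FPKM with control shRNA. TOP2A, the topoisomerase that untangles sister DNA, was at 261.03 FPKM with FZD2 shRNA and 112.69 FPKM with control shRNA (log2 ratio 1.20) without shared reads. CHTF18, of an alternative clamp loader, was at 8.75 FPKM with FZD2 shRNA, against 3.6 FPKM with control shRNA (1.08), and RNASEH2A, of ribonuclease H2, at 45.26 FPKM with FZD2 shRNA, against 21.88 FPKM with control shRNA (1.02), both without shared reads. The other 3 higher genes, CLSPN (1.38), POLD4 (1.35) and RNASEH1 (1.24), had shared reads.

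Of 12 other genes of nucleotide supply, 3 were lower and 0 higher, where 7.41% of measured genes were lower and 15.2% higher. With the GC trend taken out, DCK alone of these 3 was lower. DCK, the deoxycytidine kinase of the salvage route, was at 1.93 FPKM with FZD2 shRNA and 9.51 FPKM with control shRNA (log2 ratio -1.84). DCTD, deoxycytidylate deaminase, was at 4.74 FPKM with FZD2 shRNA and 13.25 FPKM with control shRNA (-1.31), and CMPK1, a nucleotide kinase, at 20.51 FPKM with FZD2 shRNA, against 43.25 FPKM with control shRNA (-1.04). Of 25 other genes of the G1/S transition, 6 were lower and 1 higher, and with the GC trend taken out 1 was lower (CDKN1B) and 3 were higher (TFDP2, RBL1 and SKP2). CDKN1B, which encodes the inhibitor p27, was at 4.0 FPKM with FZD2 shRNA, against 13.58 FPKM with control shRNA (-1.54). TFDP1, a partner of E2F factors, was at 14.31 FPKM with FZD2 shRNA and 33.07 FPKM with control shRNA (-1.15), and RBL2, of the retinoblastoma family, at 2.37 FPKM with FZD2 shRNA and 6.64 FPKM with control shRNA (-1.18). TFDP2, the other E2F partner, was at 25.6 FPKM with FZD2 shRNA, against 7.23 FPKM with control shRNA (1.69, shared reads).

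Genes of mitosis, set beside the replication genes as another part of the cell cycle, had 5 of 29 lower, beside 7.41% of measured genes, and 0 higher, beside 15.2%. Their median was -0.63 where the 51 replication genes had -0.62. With the GC trend taken out, 1 of the 29 was lower (KIF20A), beside 2.52% of measured genes, and 2 were higher, beside 21.4%. KIF20A, a kinesin of cytokinesis, was at 7.51 FPKM with FZD2 shRNA, against 23.67 FPKM with control shRNA. CDK1 was at 21.01 FPKM with FZD2 shRNA and 49.92 FPKM with control shRNA, and ANLN at 28.13 FPKM with FZD2 shRNA and 62.22 FPKM with control shRNA. No test of a difference between the replication and mitosis lists was made.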

How the data were processed

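RNA was measured in 1 FZD2 shRNA and 1 control shRNA library of SNU449 cells. Oligo(dT) selection, random priming and BGISEQ-500 sequencing are given per the labels' protocols, and Bowtie2, HISAT and hg19 per the submitters' processing notes. No source used here names the counting program, its annotation or its strand setting. The deposited expected counts are the authors' estimated reads per gene, not normalized. FPKM, as deposited, divides those reads by gene length and sequencing depth. Unlisted genes were set to 0.

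Symbols came from the RefSeq table (GRCh38.p14), so hg19 coordinates are not given. Of measured genes, 53 had no symbol. Ratios used a pseudocount of 1 FPKM and the interval was the exact conditional binomial interval on rounded expected counts. Reads copied in amplification are not independent, so it can be too narrow. Depth set the precision, and 3 counts are 3.64e-05% of the FZD2 shRNA total and 3.56e-05% of the control total. Shared reads were read from expected counts more than 0.001 from whole. GC content and exon overlaps came from GENCODE release 29 transcripts, matched by RefSeq accession for 96.1% of measured genes, and the trend was a lowess (fraction 0.3) on genes without shared reads. Differences of log2 count ratios between subunits have normal-approximation counting intervals. The ratio and interval functions were tested on simulated counts with counting error only. That checks their arithmetic and cannot show how well the intervals hold for these libraries.

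The members and lists were chosen with earlier results of these data known. All 51 members are named, then genes of the other replication lists past 2-fold with at least 5 FPKM in 1 library, and up to 3 mitosis genes. Genes overlapping a member were named after their values were seen, and not all of them are named. Tools were Python 3.11.15, SciPy 1.17.1, NumPy 2.4.6, statsmodels 0.14.6, pandas 2.3.3, matplotlib 3.10.9 and edgeR 4.0.16 (TMM factors only, under R 4.3.3).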

Additional observations from a re-analysis of the deposited data

How the results depend on the processing

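No paired analysis was possible because each group held 1 library, and for the same reason no library could be left out. The count of lower members was 8, and it was 3 with a pseudocount of 5 FPKM, 5 with the GC trend taken out (of 49 members, RPA1 having no GC value), 27 at a 1.5-fold limit, 0 at a 4-fold limit and 35 by counting interval. The count of higher members was 2, and under the same 5 settings it was 1, 4, 3, 0 and 11, with 0 in genes without shared reads. Other replication genes were 11 lower in the main setting, but 18 with a pseudocount of 0.1 FPKM and 18 in CPM, and 2, 2, 28, 0 and 47 under the 5 settings. They were 7 higher, but 11, 0 and 23 at the 1.5-fold limit, the 4-fold limit and by counting interval, and 3 without shared reads. Mitosis genes were 5 lower, but 3 with a pseudocount of 5 FPKM, 2 in TPM, 1 with the GC trend taken out, and 16, 0 and 22 by the other limits. Of all measured genes, 7.41% were lower and 15.2% higher in the main setting. These shares were 2.52% and 21.4% with the GC trend taken out, 36.8% and 35.5% by counting interval, and 10.2% and 4.19% without shared reads. They were not computed in the other settings, so the counts given there have no background beside them. The members' median moved to -0.19 with the GC trend taken out, and in the other settings it lay between -0.65 and -0.46. FZD2 was at -1.63 with a pseudocount of 5 FPKM and -2.04 with the GC trend taken out. TPM moved the median of all measured genes to 0.14 and the GC setting to 0.23. Of the 8 lower members, PRIM2, RFC3, LIG1, RPA1 and SAMHD1 fell short with a pseudocount of 5 FPKM, LIG1 and TYMS in TPM, PRIM2 and TYMS with the GC trend taken out, and LIG1 in CPM and with a common length, a setting chosen after seeing the data. MCM2 and PCNA passed 2-fold in every setting run except the 4-fold limit. No called member changed sign. The causes of these changes were not tested. SAMHD1, RFC3, POLE2, GINS3 and PRIM2 had the lowest expected counts with FZD2 shRNA, 22 to 60.88, so depth limits their ratios most.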
